A study of Homo sapiens with 8 samples.

Results

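The 10 genes described here carry out fatty acid synthesis, desaturation and elongation, and they were taken by name, for that role, from the 60671 genes listed for MM.1S, an established human multiple myeloma (MM) cell line. All 10 were found. The data are RNA sequencing values of 8 samples collected at 12 h, with 2 samples in each of 4 groups: vehicle, FeAc (an iron compound used in the study to supply iron), bortezomib (a proteasome inhibitor used against MM), and bortezomib plus FeAc. All groups share the wild-type genotype given in the labels, and doses are not given there. The study's methods name 2 biological replicates, and the labels do not say whether these were separate cultures, so p-values measure the spread between these samples, which may be technical. Vehicle and FeAc samples were deposited in 1 table and the bortezomib samples in another, so that the table and bortezomib cannot be told apart.

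Cells build fatty acids from acetyl-CoA in the cytosol. Acetyl-CoA is carboxylated to malonyl-CoA, a single large enzyme joins these units into palmitate, and membrane enzymes then lengthen the chain and insert double bonds. The pathway is known for its control by SREBP transcription factors, which also drive the genes of sterol synthesis. In plasma cells and myeloma cells it supplies the membranes of a large endoplasmic reticulum.

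Values were read as TPM, a transcript level that allows for the length of each gene and gives every sample the same total, so levels can be compared between genes but hold no read counts. The depth behind each value is unknown. The identity of the cells was checked with 10 plasma cell markers, all of which were at or above 1 TPM in every sample, with a summed level of 4115 to 9908 TPM. That sum was 7621 to 9908 TPM without bortezomib and 4115 to 5803 TPM with it. Summed levels of 5 T cell markers reached at most 2.03 TPM, of 5 myeloid markers 2.26 TPM, of 5 stromal markers 8.87 TPM and of 5 erythroid markers 13.5 TPM, the last almost all from HBB. Stromal marker sums were 1.54 to 2.52 TPM without bortezomib and 5.92 to 8.87 TPM with it. Against vehicle, bortezomib had 1 of 2 tested stromal markers called higher (smallest adjusted p = 0.00865 in limma), against 6.27% of all genes. Of the 10 plasma cell markers 1 was called lower (smallest adjusted p = 0.0393 in limma), against 5.89% of all genes. Erythroid marker sums were 10.3 to 13.5 TPM without bortezomib and 2.46 to 5.92 TPM with it, and HBB fell with bortezomib against vehicle (log2 fold change -1.63, adjusted p = 0.0366 in limma), a call lost without any 1 sample other than bortezomib replicate 2. At 0 in every sample were 1 T cell, 1 myeloid and 1 erythroid marker. The part of these markers in the results was not tested, and in such bulk samples fewer cells of a type and less RNA per cell cannot be told apart. HSPA1A, a heat shock protein gene, was at 1.69 to 7.18 TPM without bortezomib and at 3053 to 6388 TPM with it. TFRC, the transferrin receptor gene, was at 120 and 123 TPM with vehicle, 57.4 and 52.6 TPM with FeAc, 65.6 and 94.2 TPM with bortezomib and 27.8 and 44.5 TPM with both.

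The 2 samples with bortezomib plus FeAc stood apart from each other. Mitochondrially encoded genes took 2.99% of the TPM in replicate 1 and 10.1% in replicate 2, against 5.49% to 14.3% in the other 6 samples. HMOX1, which degrades heme, was at 1663 TPM in replicate 1 and 339 TPM in replicate 2, and DNAJB1, a co-chaperone gene, was at 3506 and 1021 TPM. Values that rest on this group are therefore also given without either sample where they moved most.

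Acetyl-CoA is supplied by 2 members. ACLY (ENSG00000131473; chr17:41866908-41930542, minus strand, GENCODE release 29 on GRCh38), which cleaves citrate, was at 39.5 and 53.4 TPM with vehicle, 64.1 and 68.4 TPM with FeAc, 34.6 and 33.0 TPM with bortezomib and 25.9 and 49.5 TPM with both. The FeAc samples of ACLY lay above all other samples. An antisense gene, AC125257.2, overlaps it and varied between 1.43 and 71.6 TPM across the samples, and how strand was used in counting is not given in the sources used here. ACSS2 (ENSG00000131069; chr20:34872146-34927962, plus strand), which makes acetyl-CoA from acetate, was at 7.94 and 7.60 TPM with vehicle, 9.79 and 13.4 TPM with FeAc, 5.38 and 12.6 TPM with bortezomib and 3.54 and 6.22 TPM with both. Its bortezomib samples spanned the vehicle samples and the lower FeAc sample.

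Malonyl-CoA and palmitate synthesis rest on ACACA and FASN. ACACA (ENSG00000278540; chr17:37084988-37406818, minus strand), the acetyl-CoA carboxylase of the first committed step, was at 9.62 and 10.4 TPM with vehicle, 12.4 and 15.0 TPM with FeAc, 5.92 and 7.09 TPM with bortezomib and 3.45 and 9.26 TPM with both. Both FeAc samples of ACACA lay above every other sample. FASN (ENSG00000169710; chr17:82078333-82098332, minus strand), which joins the units into palmitate, was at 38.5 and 51.8 TPM with vehicle, 89.3 and 76.7 TPM with FeAc, 33.2 and 32.8 TPM with bortezomib and 27.1 and 66.4 TPM with both. The combined treatment thus held both the lowest FASN value and one above either vehicle sample.

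Double bonds are inserted by 3 members. SCD (ENSG00000099194; chr10:100347124-100364834, plus strand), the stearoyl-CoA desaturase that makes monounsaturated fatty acids, was at 22.8 and 32.3 TPM with vehicle, 87.7 and 78.7 TPM with FeAc, 13.4 and 15.2 TPM with bortezomib and 17.9 and 46.8 TPM with both. No FeAc sample of SCD overlapped another group, and both bortezomib samples were the lowest of the 8. FADS1 (ENSG00000149485; chr11:61799625-61829318, minus strand), the delta-5 desaturase of polyunsaturated fatty acids, was at 5.29 and 6.82 TPM with vehicle, 13.1 and 12.4 TPM with FeAc, 3.61 and 3.65 TPM with bortezomib and 2.48 and 5.12 TPM with both. FADS2 (ENSG00000134824; chr11:61792980-61867354, plus strand), the delta-6 desaturase, was at 0.69 and 1.64 TPM with vehicle, 1.12 and 1.67 TPM with FeAc, 0.24 and 0.05 TPM with bortezomib and 0.07 and 1.57 TPM with both. FADS2 was the lowest member, and it reached a mean of 1 TPM in the vehicle and FeAc groups only. The gene body of FADS1 lies within that of FADS2 on the opposite strand, and FEN1, at 68.1 to 141 TPM, also overlaps FADS2, so their reads may not have been fully separated.

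Chains are lengthened by 3 members. ELOVL1 (ENSG00000066322; chr1:43363397-43368074, minus strand), which elongates saturated very long chains, was at 70.7 and 87.0 TPM with vehicle, 91.5 and 101 TPM with FeAc, 68.8 and 63.2 TPM with bortezomib and 59.1 and 75.6 TPM with both. ELOVL5 (ENSG00000012660; chr6:53267398-53349179, minus strand), which elongates polyunsaturated chains, was at 34.2 and 40.9 TPM with vehicle, 51.5 and 45.0 TPM with FeAc, 59.4 and 57.0 TPM with bortezomib and 59.2 and 63.1 TPM with both. ELOVL5 was the one member whose 4 bortezomib samples lay above all 4 samples without bortezomib. ELOVL6 (ENSG00000170522; chr4:110045846-110199199, minus strand), which lengthens palmitate to stearate, was at 24.4 and 15.9 TPM with vehicle, 10.2 and 6.11 TPM with FeAc, 9.33 and 3.89 TPM with bortezomib and 28.4 and 4.99 TPM with both. Its vehicle samples lay above the samples given FeAc alone or bortezomib alone, and the 2 samples with both treatments differed 5.70-fold.

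**Figure D1:**
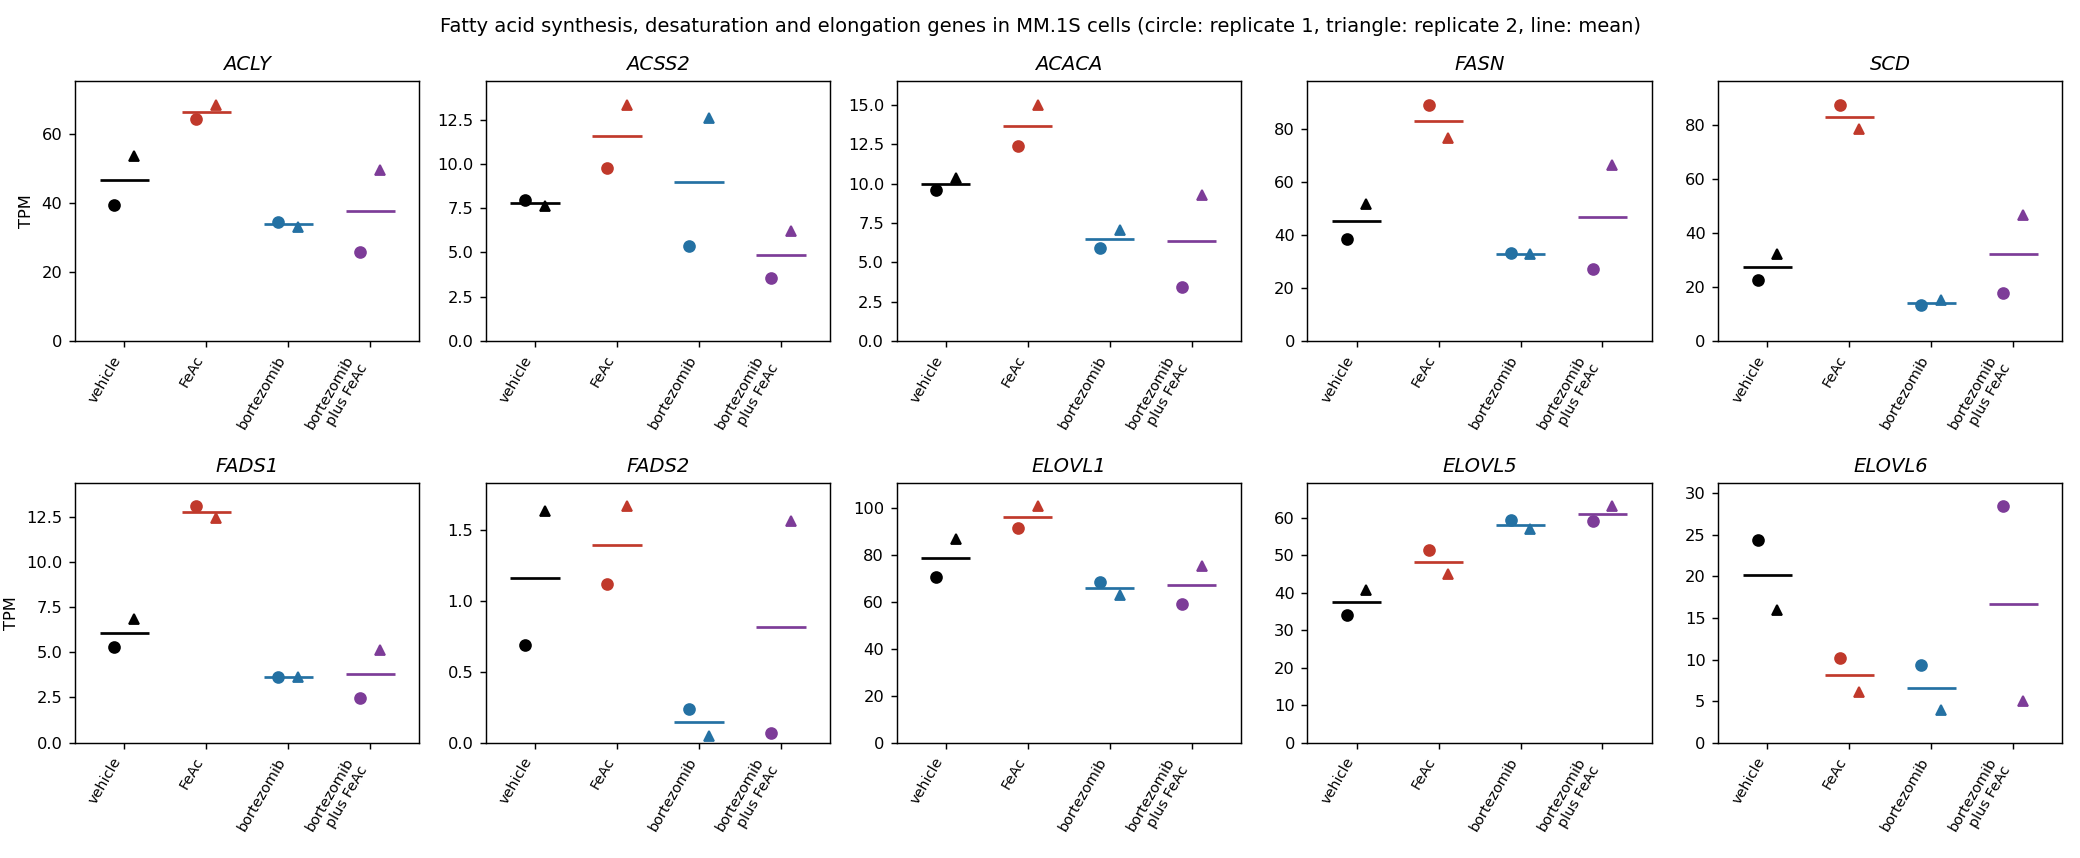
TPM (linear axis from 0) of the 10 genes in the 8 samples, by group, with circles for replicate 1, triangles for replicate 2 and a line for the mean of 2. SCD stood at 78.7 to 87.7 TPM with FeAc alone and at 13.4 to 46.8 TPM in the other groups, and the 2 samples with bortezomib plus FeAc lay far apart for most genes.

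Promoter sequences are shown for 4 members, SCD and FADS1, which had the largest increases with FeAc, and ELOVL5 and ELOVL6, whose order of groups differed from theirs. They run from 250 bases before to 50 bases after a RefSeq gene start (GRCh38.p14), 5′ to 3′ on the strand of the gene. Capitals mark CCAAT, the site of NF-Y, or its complement, and the E-box CACGTG. The windows are chr10:100346983-100347282 (plus strand) for SCD, chr11:61816954-61817253 (minus strand) for FADS1, chr6:53348901-53349200 (minus strand) for ELOVL5 and chr4:110198566-110198865 (minus strand) for ELOVL6.
SCD: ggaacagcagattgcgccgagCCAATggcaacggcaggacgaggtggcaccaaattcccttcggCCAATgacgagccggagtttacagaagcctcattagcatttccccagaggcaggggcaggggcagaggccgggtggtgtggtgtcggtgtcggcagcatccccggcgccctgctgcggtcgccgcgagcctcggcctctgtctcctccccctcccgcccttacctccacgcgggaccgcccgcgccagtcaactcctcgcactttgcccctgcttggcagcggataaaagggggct
FADS1: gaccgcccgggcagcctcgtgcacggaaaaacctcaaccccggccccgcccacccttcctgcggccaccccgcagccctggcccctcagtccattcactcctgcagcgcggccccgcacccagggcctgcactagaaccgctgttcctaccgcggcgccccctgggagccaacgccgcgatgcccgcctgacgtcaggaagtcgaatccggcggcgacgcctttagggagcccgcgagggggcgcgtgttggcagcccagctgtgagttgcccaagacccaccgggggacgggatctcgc
ELOVL5: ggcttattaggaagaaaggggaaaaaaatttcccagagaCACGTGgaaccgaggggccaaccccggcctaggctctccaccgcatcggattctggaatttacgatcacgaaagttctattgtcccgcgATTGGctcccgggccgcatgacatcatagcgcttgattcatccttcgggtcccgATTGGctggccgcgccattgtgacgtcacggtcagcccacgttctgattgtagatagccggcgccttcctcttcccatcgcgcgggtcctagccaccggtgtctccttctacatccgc
ELOVL6: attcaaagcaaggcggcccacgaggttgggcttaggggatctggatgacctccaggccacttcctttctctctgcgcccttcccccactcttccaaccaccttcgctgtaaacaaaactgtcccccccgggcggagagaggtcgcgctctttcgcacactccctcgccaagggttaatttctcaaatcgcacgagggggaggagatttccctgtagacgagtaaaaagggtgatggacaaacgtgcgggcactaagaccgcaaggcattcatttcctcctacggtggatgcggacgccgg

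The RefSeq table held 14 promoters for 9 of the 10 members, all but FASN, some of them overlapping, and was searched on both strands. CCAAT was in 9 of the 14 and in 34.6% of all 35116 promoters of the table. In the SCD promoter it began at positions -229 and -186 relative to the gene start. The E-box CACGTG was in 1 of the 14, that of ELOVL5, and in 7.26% of all promoters. The core of the sterol response element, searched as TCACNCCAC, was in 0 of the 14 and in 1.13% of all promoters. For sterol synthesis genes the table held 20 promoters, 15 with CCAAT, 3 with the E-box and 0 with TCACNCCAC. These are counts of promoters, not of genes. The search takes these letters only, within these windows, so a count of 0 does not show that sterol response elements are absent.

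To ask how these genes differed with FeAc alone, FeAc was compared with vehicle. SCD had a mean of 83.2 ± 6.39 TPM with FeAc and 27.5 ± 6.72 TPM with vehicle (SD, n = 2), a ratio of 3.02. FADS1 had a ratio of 2.10, FASN of 1.84, and ELOVL6 was 2.48-fold lower in FeAc than in vehicle. In 8 of the 10 members both FeAc samples lay above both vehicle samples, which was so for 22.9% of the 14812 genes tested. ELOVL6 was the 1 member with both FeAc samples below both vehicle samples, which was so for 10.1% of genes, and FADS2 overlapped. None of these differences passed the test, which was limma-trend on log2(TPM + 1) in 1 fit of the 8 samples with Benjamini-Hochberg adjustment, with calls made where the adjusted p was under 0.05 and the fold over 1.5. It called 0 of the 10 members and 0.00675% of all genes. On the log2(TPM + 1) scale, which understates the change of low genes, the fold change was 1.58 for SCD (standard error, SE, 0.39), 0.97 for FADS1 (0.28), 0.87 for FASN (0.36) and 0.36 for ELOVL5 (0.15). These were the 4 members with an unadjusted p under 0.05, against 3.42% of all genes, and each had an adjusted p of 0.951 in limma. That value rests on an error pooled over all 4 groups. In the fit of vehicle and FeAc alone, the adjusted p in limma was 0.174 for SCD, 0.719 for FADS1 and 0.891 for FASN and ELOVL5. ELOVL6 had a log2 fold change of -1.22 (SE 0.70, adjusted p = 0.951 in limma). The others lay between 0.17 for FADS2 and 0.52 for ACLY. The median over the 10 members was 0.46, against 0.08 over all genes tested. No member passed in the 16 alternatives planned for this comparison.

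To see whether they also differed with FeAc under proteasome inhibition, bortezomib plus FeAc was compared with bortezomib. SCD was the 1 member with both combined samples above both bortezomib samples, with a mean of 32.3 ± 20.4 TPM against 14.3 ± 1.28 TPM (SD, n = 2), and this held for 8.82% of genes. Its log2 fold change was 0.98 (SE 0.39, adjusted p = 1.00 in limma), and it was the 1 member with an unadjusted p under 0.05, against 2.52% of genes. The test called 0 of the 10 members and 0% of all genes. ACSS2 had a log2 fold change of -0.70 (SE 0.38), which was -0.16 without bortezomib replicate 2 and -1.25 without bortezomib replicate 1. ELOVL6 had one of 0.90 (SE 0.70) and FADS1 one of 0.00 (SE 0.28). The median over the members was 0.08, against -0.04 over all genes.

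These values rest on which combined sample is used. Replicate 1 lay below both bortezomib samples in 6 members, against 51.3% of all genes, above both in 2 (SCD and ELOVL6), against 22.9%, and between them in 2. Replicate 2 lay above both in 8 members, against 42.4% of all genes, and between them in 2. Without replicate 1 the log2 fold change was 1.65 for SCD, 0.99 for FASN, 0.54 for ACLY, 0.46 for ACACA, 0.40 for FADS1, -0.37 for ACSS2 and -0.25 for ELOVL6. Without replicate 2 it was 0.31 for SCD, -0.28 for FASN, -0.37 for ACLY, -0.75 for ACACA, -0.41 for FADS1, -1.04 for ACSS2 and 2.05 for ELOVL6. Between the 2 samples, 9 of the 10 members were higher in replicate 2, against 64.9% of all genes, and 8 of the 10 differed over 1.5-fold on the log2(TPM + 1) scale, against 22.8% of all genes. The ratio of replicate 2 to replicate 1 was 2.68 for ACACA, 2.62 for SCD, 2.45 for FASN, 2.07 for FADS1, 1.92 for ACLY, 1.28 for ELOVL1 and 1.07 for ELOVL5. The part of the mitochondrial share and of HMOX1 and DNAJB1, which differ between these samples, was not tested.

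**Figure D2:**
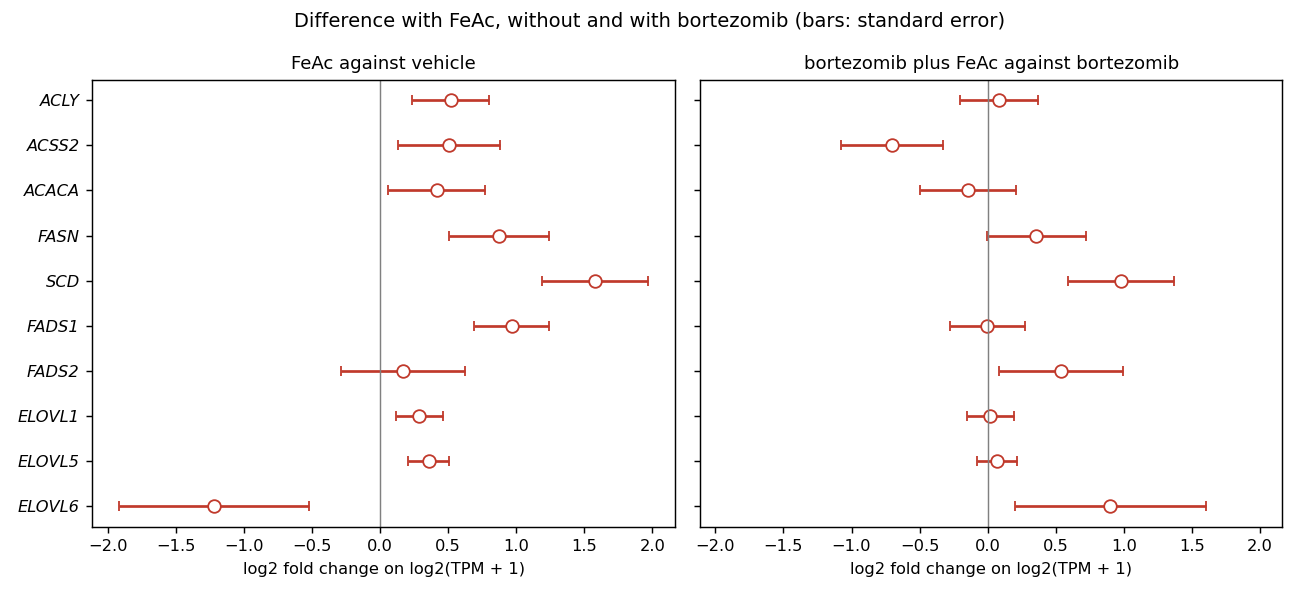
Log2 fold changes on log2(TPM + 1) of the 10 genes with FeAc, without bortezomib (left) and with it (right). Points are limma estimates from 2 samples a group, bars are standard errors, and open points did not pass the test, which holds for all 20 values. The point for SCD was 1.58 on the left and 0.98 on the right.

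**Figure D3:**
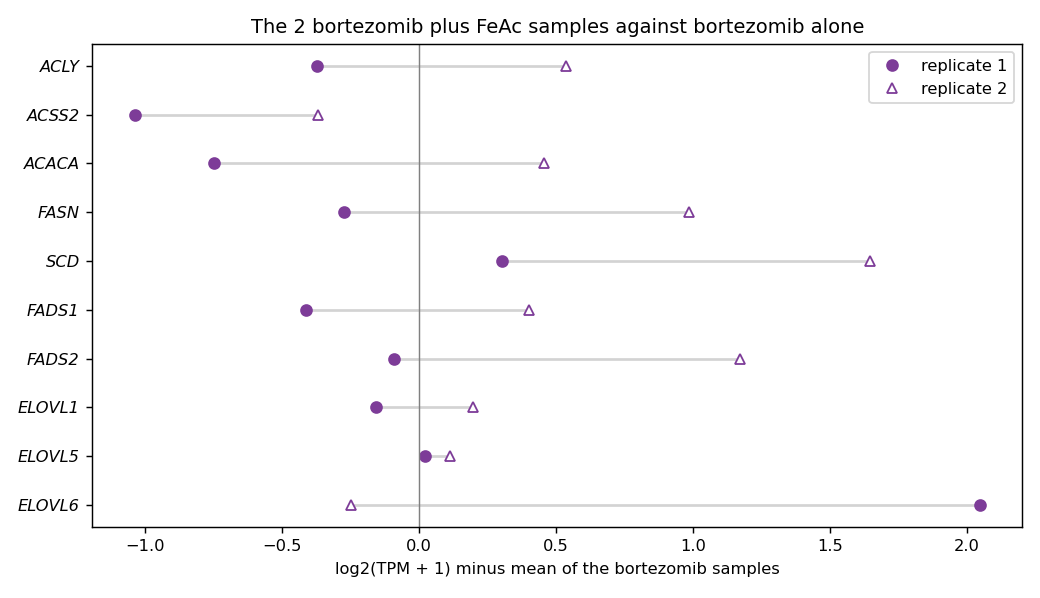
Difference of each bortezomib plus FeAc sample (filled circle: replicate 1, open triangle: replicate 2) from the mean of the 2 bortezomib samples, in log2(TPM + 1), with a grey line joining the samples. The 2 samples lay on opposite sides of 0 for 7 genes, and for SCD they lay at 0.31 and 1.65.

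The difference between the FeAc effects with and without bortezomib was tested as an interaction. It called 0 of the 10 members and 0.00675% of all genes, whose median was -0.12, or -0.01 when scaled by the median of ratios. FADS1 was the 1 member with an unadjusted p under 0.05, against 2.35% of genes, with a difference of -0.97 log2 units (SE 0.39, 95% interval -1.88 to -0.07, adjusted p = 0.983 in limma). For SCD the difference was -0.61 (interval -1.88 to 0.67) and for ELOVL6 2.12 (interval -0.17 to 4.41). These intervals are wide, and a test that was not passed does not show that FeAc acted alike in both settings. Without combined replicate 1 the difference was 0.07 for SCD, -0.57 for FADS1 and 0.97 for ELOVL6, and without replicate 2 it was -1.28, -1.38 and 3.27.

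Bortezomib alone was compared with vehicle across the 2 tables. ELOVL5 rose, from 37.5 ± 4.74 TPM with vehicle to 58.2 ± 1.69 TPM with bortezomib (SD, n = 2), a ratio of 1.55 and a log2 fold change of 0.63 (SE 0.15, adjusted p = 0.0355 in limma). It was the 1 member called higher, against 6.27% of all genes, and 0 members were called lower, against 5.89%, with none lower at an unadjusted p under 0.05, against 16.9% of genes. The call held in 6 of 16 alternatives, and was lost without any 1 of the vehicle, FeAc or bortezomib samples (adjusted p = 0.0554 to 0.182 in limma). It was also lost when mitochondrial genes were left out (adjusted p = 0.0855 in limma). In 8 members both bortezomib samples lay below both vehicle samples, which was so for 35.0% of genes, and ELOVL5 was the 1 that lay above, as 26.1% of genes did. FADS2 is among the 8, but it is near the floor and passed the filter of 1 TPM only through groups without bortezomib. Its place in this count is therefore not read as a result. SCD had a log2 fold change of -0.88 (SE 0.39, adjusted p = 0.175 in limma), with means of 14.3 and 27.5 TPM. ELOVL6 had one of -1.54 (SE 0.70, adjusted p = 0.183 in limma) and FADS1 one of -0.60 (SE 0.28, adjusted p = 0.189 in limma). ACSS2, which overlapped, had one of 0.09, and of -0.46 without bortezomib replicate 2. The median over the members was -0.49, against -0.06 over all genes. Standard errors here pool all 4 groups, the combined samples included, although these are not in this comparison. The median difference between replicates over the members, in log2(TPM + 1), was 1.06 in the combined group. It was 0.37 with vehicle, 0.20 with FeAc and 0.15 with bortezomib. The count of 0 members lower therefore does not show that they moved less than other genes. SCD passed in the fit of these 2 groups alone and without either combined sample, and ELOVL6 in the fit of the 2 groups alone.

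Against FeAc alone, bortezomib plus FeAc gave lower SCD and FADS1. SCD fell from 83.2 ± 6.39 to 32.3 ± 20.4 TPM (SD, n = 2), a log2 fold change of -1.49 (SE 0.39, adjusted p = 0.0443 in limma). FADS1 fell from 12.7 ± 0.467 to 3.80 ± 1.87 TPM, a log2 fold change of -1.57 (SE 0.28, adjusted p = 0.0156 in limma). These 2 were called lower, against 8.86% of all genes, and 0 members were called higher, against 4.94%. At an unadjusted p under 0.05, 7 members were lower, against 22.2% of genes, and 0 higher, against 10.1%. In 7 members both combined samples lay below both FeAc samples, against 39.4% of genes, and ELOVL5 was the 1 above, against 19.4%. ACACA had a log2 fold change of -1.12 (SE 0.35, adjusted p = 0.0730 in limma), ACSS2 one of -1.12 (SE 0.38, adjusted p = 0.0837), FASN one of -0.94 (SE 0.36, adjusted p = 0.120) and ACLY one of -0.87 (SE 0.29, adjusted p = 0.0804). The median over the members was -0.91, against -0.17 over all genes. Scaling by the median of ratios moved the median of all genes to 0.00 and the calls over all genes from 732 higher and 1312 lower to 1063 and 850. Under it SCD had a log2 fold change of -1.30 and FADS1 one of -1.41, and both were called. Without combined replicate 1, neither was called (SCD -0.82, FADS1 -1.17), and without replicate 2, 6 members were called lower (ACLY, ACACA, FASN, SCD, FADS1 and ELOVL1), against 15.5% of the genes tested in that fit. The log2 fold changes without replicate 1 were -0.51 for ACACA, -0.41 for ACLY, -0.31 for FASN and -0.79 for ACSS2. Without replicate 2 they were -1.72, -1.32, -1.57 and -1.45, with -2.16 for SCD and -1.98 for FADS1. Neither SCD nor FADS1 was called without either FeAc sample or either bortezomib sample, and FADS1 alone was called without either vehicle sample.

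**Figure D4:**
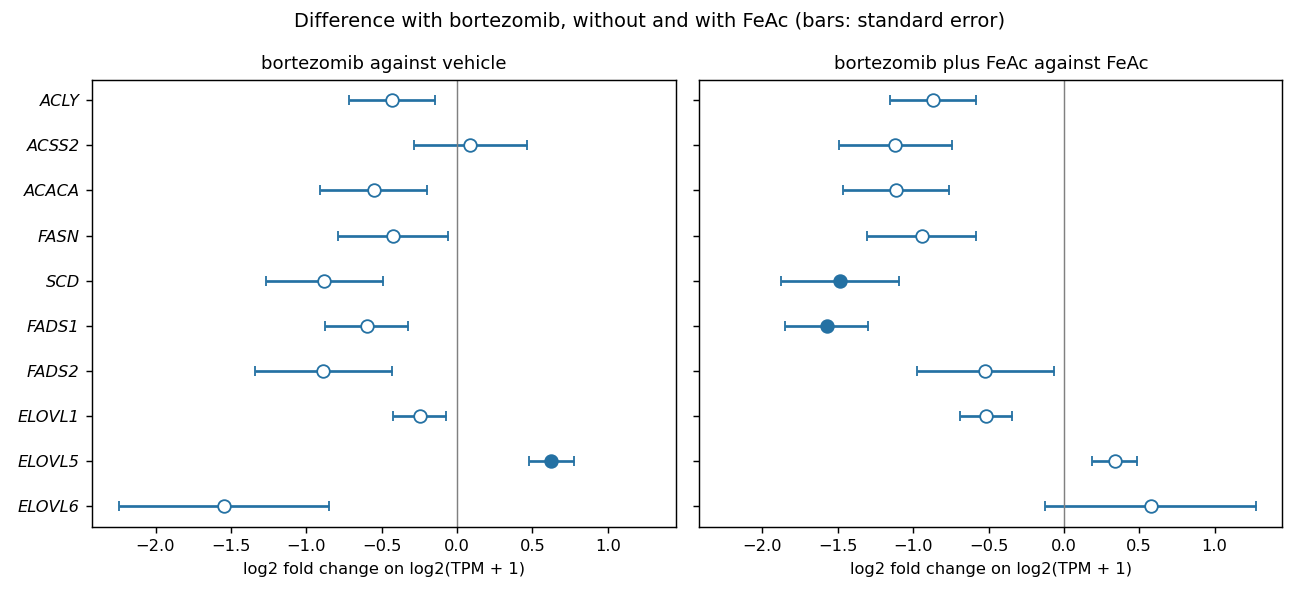
Log2 fold changes on log2(TPM + 1) of the 10 genes with bortezomib, without FeAc (left) and with it (right). Points are limma estimates from 2 samples a group, bars are standard errors, and filled points passed the test: ELOVL5 at 0.63 on the left, and SCD at -1.49 and FADS1 at -1.57 on the right.

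The 4 comparisons share samples, so their values for a gene are not independent of each other. Ratios within a sample do not depend on its scale. The ratio of SCD to FASN was 0.591 and 0.622 with vehicle, 0.982 and 1.03 with FeAc, 0.403 and 0.463 with bortezomib and 0.658 and 0.705 with both. No group overlapped another in this ratio. The 2 combined samples were close to each other in it, although both genes differed 2.45-fold or more between them. Groups did overlap in the ratios of FADS1 to FADS2, SCD to ELOVL6, FASN to ACACA and ACLY to ACSS2. In the combined samples these were 35.4 and 3.26, 0.628 and 9.37, 7.86 and 7.17, and 7.30 and 7.96. How often other pairs of genes separate the 4 groups was not tested. Of the summed TPM of ELOVL1, ELOVL5 and ELOVL6, ELOVL5 took 26.5% and 28.4% with vehicle, 33.6% and 29.6% with FeAc, 43.2% and 46.0% with bortezomib and 40.4% and 43.9% with both. ELOVL6 took 18.9% and 11.1% with vehicle, 6.63% and 4.02% with FeAc, 6.78% and 3.13% with bortezomib and 19.4% and 3.47% with both. The summed TPM of the 10 members was 253 and 308 with vehicle, 431 and 418 with FeAc, 234 and 229 with bortezomib and 227 and 329 with both.

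Across the 8 samples, which share the 4 group means and come from 2 tables, ELOVL5 and ELOVL6 each had a negative Pearson correlation of log2(TPM + 1) with all 9 other members, from -0.51 to -0.14 for ELOVL5 and from -0.60 to -0.17 for ELOVL6. The 28 pairs among the other 8 members lay between 0.34 and 0.98. Among 9586 genes whose mean over the samples reached 5 TPM, those with a pattern most like SCD included DHCR7 (Pearson r 0.985) and LSS (0.983), which encode enzymes of sterol synthesis. Those most like FASN were LSS (0.985), DHCR7 (0.979) and DCAF11 (0.971). Those most like ELOVL5 were SIRT2 (0.994), HERPUD1 (0.987) and ANKRD11 (0.987), and those most like ELOVL6 were AC243960.1 (0.958), THAP1 (0.919) and NFKBIL1 (0.899).

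Other genes of lipid metabolism were read from the same fit. With FeAc, 0 genes of any of these lists were called. Of the 20 sterol synthesis enzymes, 18 had an unadjusted p under 0.05, all higher, against 3.42% of all genes in either direction. Their median log2 fold change was 0.95. FDFT1, which makes squalene, had a log2 fold change of 1.47 (adjusted p = 0.0588 in limma) and MSMO1, a methylsterol oxidase, one of 1.43 (adjusted p = 0.156). With bortezomib present, 15 of the 20 had an unadjusted p under 0.05, all higher, against 2.52% of all genes in either direction. Their median there was 0.66, and the members' median was 0.08. Without combined replicate 1 the median of the sterol enzymes was 0.87, against 0.05 over all genes. Without replicate 2 it was 0.42, against -0.12. Of 11 tested regulators, 4 had an unadjusted p under 0.05 with FeAc, 3 higher and 1 lower, as did 2 genes of carbon and NADPH supply and 0 genes of the remaining 5 lists. Over all genes tested that share was 3.42%. INSIG1, which retains SREBP in the endoplasmic reticulum, was at 69.5 and 75.3 TPM with vehicle and 248 and 242 TPM with FeAc (log2 fold change 1.75, SE 0.18, adjusted p = 0.0738 in limma). SREBF1, which encodes the SREBP form tied to fatty acid synthesis, was at 24.4 and 38.1 TPM with vehicle, 52.1 and 49.5 TPM with FeAc, 12.9 and 19.7 TPM with bortezomib and 6.55 and 21.4 TPM with both. In bortezomib plus FeAc against FeAc, 2 of the 11 tested regulators were called lower, against 8.86% of all genes. The smallest adjusted p among the 11 was 0.0240 in limma. SREBF1 was among these 2 and fell (log2 fold change -1.99, SE 0.47, adjusted p = 0.0346 in limma). Without combined replicate 1 the log2 fold change was -1.21 and without replicate 2 it was -2.78, and the call was lost without any 1 sample other than the latter (adjusted p = 0.0678 to 0.186 in limma). Medians with FeAc were 0.33 over 11 genes of carbon and NADPH supply, 0.12 over 13 of glycerolipid synthesis, 0.08 over 10 acyl-CoA synthetases and binding proteins, 0.06 over 16 of fatty acid oxidation, 0.06 over 9 of mitochondrial fatty acid synthesis and 0.00 over 12 other enzymes of elongation and desaturation.

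With bortezomib against vehicle, these lists held calls in both directions, as did all genes tested, of which 6.27% were called higher and 5.89% lower. The lists are small, so their counts are not read as a result about lipid genes. How the call of each gene below held in the alternatives is not given here. Of 11 tested genes of carbon and NADPH supply, 2 rose: ME1, the cytosolic malic enzyme that makes NADPH (log2 fold change 1.33, SE 0.14, adjusted p = 0.00268 in limma), and PGD of the pentose phosphate pathway (0.77). Of 12 other enzymes of elongation and desaturation, 1 rose and 3 fell. CYB5R1, a cytochrome b5 reductase, rose with a log2 fold change of 2.14 (SE 0.17, adjusted p = 0.00166 in limma). CYB5A, the cytochrome b5 that passes electrons to desaturases, fell by 1.05 on the log2 scale, and SCD5, a second stearoyl-CoA desaturase, by 1.03. Among the genes of fatty acid oxidation, ACADVL, which starts the oxidation of very long chains, rose by 1.19 on the log2 scale and ACADM, which acts on medium chains, fell by 0.67. GPAT3, which starts glycerolipid synthesis, rose by 1.48, the 1 of 13 tested genes of its list that was called. FABP5, a fatty acid binding protein, fell by 0.98, the 1 of 10 in its list. Of 9 genes of mitochondrial fatty acid synthesis 2 fell, CBR4 by 0.87 and HSD17B8 by 0.86, and of the 20 sterol enzymes PMVK fell by 0.93. Of the 11 tested regulators 0 were called and 2 had an unadjusted p under 0.05, against 4476 of the 14812 genes tested. NR1H2, the LXR-beta gene, had the smallest adjusted p of the regulators (0.0523 in limma, log2 fold change 0.63). In the interaction 0 genes of any of these lists were called in limma. In it 1, a sterol enzyme, had an unadjusted p under 0.05, against 2.35% of all genes.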

How the data were processed

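RNA sequencing values of 8 MM.1S samples in 4 groups of 2 were used. The deposited values, in 2 tables with the same 60671 gene IDs, were read as TPM, since the sample columns name no unit and sum to between 994968 and 996780. HISAT2, StringTie, RSEM, edgeR and DESeq2 and the build GRCh38.p13 stand in the submitters' processing notes. Versions, filters and strand settings: not given in the sources used here. Columns of the authors' own comparisons (means of groups, p-values, folds and calls) were not used. TPM carry no counts, so depth is unknown and no counting interval can be given.

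The 14812 genes whose mean reached 1 TPM in any group were fitted with limma-trend (limma 3.58.1, R 4.3.3) on log2(TPM + 1), with all 8 samples in 1 fit and 4 residual degrees of freedom. This step was tested on simulated data. Genes were called at a Benjamini-Hochberg adjusted p under 0.05 and a fold over 1.5. Members and lists were chosen with earlier results of these data known. All 10 members are named. In each other list, up to 2 called genes with the highest and 2 with the lowest log2 fold change are named, or else those with the smallest adjusted p, and the text gives a part of these. This rule covered FeAc against vehicle, bortezomib against vehicle and the interaction, so the fall of SREBF1 lies outside it. Values of some single genes are left out. Positions are from GENCODE release 29, in which 96.3% of IDs were found.

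Alternatives were a pseudocount of 0.1, no filter, a mean of at least 5 TPM, scaling by the median of ratios, leaving out mitochondrial genes, fitting only the groups compared, a replicate block, no trend and leaving out each sample. Blocks in fits of 2 groups were added after seeing the data.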

Additional observations from a re-analysis of the deposited data

How the results depend on the processing

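Direction did not change for SCD in the 4 comparisons of groups, nor for ELOVL5 in any, under the alternatives run. Of members called in bortezomib against vehicle (1), there were 0 with no filter, with mitochondrial genes left out, with the replicate block and without the trend, 3 with only the groups compared, and 0 to 2 when 1 sample was left out. Of those called in bortezomib plus FeAc against FeAc (2), there were 0 with no filter and with only the groups compared, 1 without the trend, 3 with the replicate block, and 0 to 6 when 1 sample was left out. Counts without overlap in bortezomib plus FeAc against bortezomib were 2 higher with the median of ratios, and 1 to 8 higher and 0 to 6 lower when 1 sample was left out, while they were 1 to 2 higher in bortezomib against vehicle and in bortezomib plus FeAc against FeAc. Over all genes the first of these shares were 11.6% higher with the median of ratios, and 19.5% to 42.4% higher and 26.9% to 51.3% lower when 1 sample was left out. Those higher when 1 sample was left out were 32.8% to 40.2% in bortezomib against vehicle and 25.4% to 31.3% in bortezomib plus FeAc against FeAc. The cause was not tested, except that leaving out samples leaves fewer of them. Calls over all genes are not given here for the replicate block, without the trend or with mitochondrial genes left out. Nor are they given for the fit of bortezomib and vehicle alone. The counts of members called in those fits are therefore not read as a result about the members.

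The labels do not say whether same-numbered samples were paired, and the main fit treats them as unpaired. Deviations of same-numbered samples correlated at -0.15 to 0.19 between groups, which does not settle whether they were paired. With the replicate number as a block in the fit of vehicle and FeAc alone, 1 member (SCD, adjusted p = 0.0446 in limma) and 23 genes in all were called. A crossed pairing there gave 1 member and 16 genes.

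Calls over all genes with FeAc were 1, with 0 to 27 over the alternatives without added blocks. With FeAc under bortezomib they were 0, with 0 to 29. Bortezomib against vehicle gave 1800, 799 with no filter and 74 to 2255 when 1 sample was left out. Bortezomib plus FeAc against FeAc gave 2044, 613 with no filter, 107 with only the groups compared and 55 to 3275 when 1 sample was left out. The interaction gave 1, with 0 to 18.

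Signs of values that did not pass turned as follows when 1 sample was left out. With FeAc against vehicle FADS2 ranged from -0.15 to 0.49. With FeAc under bortezomib the ranges were -0.41 to 0.40 for FADS1 (0.025 with the median of ratios), -0.16 to 0.20 for ELOVL1, -0.75 to 0.46 for ACACA, -0.25 to 2.05 for ELOVL6, -0.37 to 0.54 for ACLY, -0.28 to 0.99 for FASN and -0.093 to 1.17 for FADS2. ACSS2 ranged from -0.46 to 0.64 with bortezomib against vehicle. In bortezomib plus FeAc against FeAc, FADS2 ranged from -1.15 to 0.11 and ELOVL6 from -0.57 to 1.72. In the interaction the ranges were -0.89 to 0.019 for ACLY, -1.16 to 0.040 for ACACA, -1.15 to 0.11 for FASN, -1.28 to 0.066 for SCD and -0.26 to 1.00 for FADS2.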
